A study of Mus musculus with 12 samples.

Results

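The liver secretes and remodels the lipoprotein particles that carry triglyceride and cholesterol in blood, and 10 mouse genes of this process are described here: Lipc, Lpl, Lcat, Pltp, Mttp, Apob, Apoa1, Apoa4, Apoa5 and Apoc3. They were chosen by symbol, with earlier results of these data known. All 10 were found among the 38926 gene symbols counted in every library. All 10 were also among the 14488 genes that passed the filter on low counts. In Rev-erbα-/- livers at ZT8, Lpl was 2.75-fold, Lipc 1.57-fold and Apoa5 1.44-fold the wild-type (WT) level, and these 3 passed the test. No member passed in the same comparison at ZT20. Of these 3, only Lipc passed a test of the difference between the times, a call that held in 9 of 19 alternatives. Each of these calls is lost when certain livers are left out, as given beside the values.

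As background, MTTP loads lipid onto APOB, the structural protein of very low density lipoprotein, and the particle leaves the hepatocyte. In capillaries LPL, lipoprotein lipase, hydrolyses its triglyceride. APOA5 is known to favour this step and APOC3 to inhibit it. LIPC, hepatic lipase, acts later on remnants and on high density lipoprotein (HDL), whose main protein is APOA1. LCAT esterifies the cholesterol of HDL and PLTP transfers phospholipid to it. LPL is made mainly by muscle and fat, and the healthy adult liver is known for low Lpl expression. REV-ERBα, the product of Nr1d1, belongs to the circadian clock as a nuclear receptor and represses transcription from DNA elements shared with the ROR receptors.

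Poly(A) RNA was sequenced from the livers of 12 mice of 12 weeks of age on a mixed 129Ola/C57BL6 background. The 4 groups of 3 mice were WT at ZT8, Rev-erbα-/- at ZT8, WT at ZT20 and Rev-erbα-/- at ZT20, where ZT counts hours from lights on in a light and dark cycle. The labels name no treatment. Rev-erbα was deleted in the germ line, so every cell type of the liver lacks it, and whole tissue was sampled. The comparison asks which transcripts depend on REV-ERBα at the time of its high expression (ZT8) and at that of its low expression (ZT20). The labels number the replicates of a group 1 to 3 without stating more about their origin, so p-values measure the spread between these samples.

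Between 17641809 and 26060192 reads per library were assigned to genes, and values below are CPM, counts scaled to the TMM-corrected library size. At this depth 3 reads correspond to 0.117 to 0.167 CPM, far below every member. Reads of Nr1d1 remained in Rev-erbα-/- livers, with 63.0, 71.9 and 80.6 CPM at ZT8 against 128.7, 96.2 and 75.3 CPM in WT. Counts per symbol do not separate the deleted part of the gene, so they do not check the genotype. Arntl, the clock gene best known as repressed by REV-ERBα, was looked up for that reason after its values were known. It was at 0.796, 0.448 and 0.712 CPM in WT and 24.3, 25.7 and 22.7 CPM in Rev-erbα-/- livers at ZT8. The 3 WT livers at ZT8 differed in acute-phase transcripts, with a summed level of 8 markers of 6710, 22767 and 28419 CPM for mice 1, 2 and 3, against 6053 to 7894 CPM in the other 9 livers. Called results that use WT livers at ZT8 are therefore also given without mice 2 and 3, which leaves 1 liver in that group. The 6 hepatocyte markers were all expressed in every group, summing to 54086 to 103121 CPM. Of 4 adipocyte markers, none had a read in WT livers at ZT8, and their sum did not exceed 0.167 CPM in Rev-erbα-/- livers at ZT8. In whole tissue, fewer cells of a type and less RNA per cell cannot be told apart.

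Upstream sequences are shown for Lipc and Apoa5, which moved in the same direction at ZT8. They come from RefSeq on GRCm38.p6, hold the 250 bases before an annotated start and read 5′ to 3′ on the strand of the gene. The table held 8 of the 10 members, and Lpl and Apoc3 are named only. The motifs were searched on both strands in these 250 bases: the REV-ERBα and ROR half-sites AGGTCA and GGGTCA, the E-box CACGTG of clock activators, the D-box TTATGTAA and the glucocorticoid receptor half-site AGAACA. The full RORE, which ends in either of the first pair of half-sites and overlaps them, was searched by its consensus. Capitals mark matches. Lipc has an upstream start at chr9:70952222-70952471 and an internal start at chr9:70934809-70935058, and the Apoa5 window shown is chr9:46268358-46268607, that of the first of 2 annotated starts.
Lipc, upstream start: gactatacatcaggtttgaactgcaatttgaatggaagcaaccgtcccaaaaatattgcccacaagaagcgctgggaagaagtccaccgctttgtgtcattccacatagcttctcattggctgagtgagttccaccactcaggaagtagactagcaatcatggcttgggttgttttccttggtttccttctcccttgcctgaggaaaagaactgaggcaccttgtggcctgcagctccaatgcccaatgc
Lipc, internal start: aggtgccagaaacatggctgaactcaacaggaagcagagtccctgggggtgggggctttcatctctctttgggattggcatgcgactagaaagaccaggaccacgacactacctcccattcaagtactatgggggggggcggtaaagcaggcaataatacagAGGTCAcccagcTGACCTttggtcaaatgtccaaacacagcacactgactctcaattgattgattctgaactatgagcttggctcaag
Apoa5: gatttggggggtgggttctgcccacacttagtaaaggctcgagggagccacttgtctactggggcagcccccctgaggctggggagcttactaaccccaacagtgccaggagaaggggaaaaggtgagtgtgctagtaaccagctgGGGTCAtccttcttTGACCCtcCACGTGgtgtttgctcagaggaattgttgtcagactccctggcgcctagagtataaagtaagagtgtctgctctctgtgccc

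The window of the internal Lipc start held AGGTCA once on each strand, beginning 88 and 76 bases before the start, and the upstream Lipc window held no motif searched. The Apoa5 window held GGGTCA on each strand, beginning 104 and 90 bases before the start, followed by an E-box 82 bases before it. From the other Apoa5 start, whose window is chr9:46268383-46268632, the same matches begin 129, 115 and 107 bases before. These short words are common: AGGTCA occurred in 14.0%, GGGTCA in 11.6% and the E-box in 6.02% of 32851 mouse promoter windows of the same length. AGAACA, present in 16.1% of windows, was found in those of Apoa4 and Mttp only among the members. The full RORE (0.332% of windows) and the D-box (0.819%) were in no member window. A match describes letters and not binding.

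The members span a wide range of transcript levels. Per kilobase of merged exons, WT livers at ZT8 had 5137 ± 95.6 CPM of Apoa1 (SD, n = 3), followed by Apoc3 at 1161 ± 173, Apob at 523 ± 24.6, Apoa5 at 357 ± 28.2 and Lcat at 257 ± 20.2 CPM per kilobase. Each of these 5 lay apart from its neighbour in the order. Apoa4 (102.9), Lipc (62.6) and Mttp (53.6) came next on the same scale, with overlap between Apoa4 and Lipc and between Lipc and Mttp. Pltp (6.82) and Lpl (2.60) were lowest and lay apart from each other. The order of this pair depends on the length used, which joins the exons of all annotated transcripts. It was 10.478 kb for Lpl and 2.562 kb for Pltp. In CPM without this scaling, Lpl was above Pltp in WT livers at ZT8, with means of 27.3 and 17.5. In Rev-erbα-/- livers at ZT8 the length-scaled level of Lpl was 7.17 and that of Pltp 5.81, with overlapping livers, and Lpl was again below Pltp in both groups at ZT20. Together the 10 members took 1.71% to 2.24% of the counted reads of a library.

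**Figure D1:**
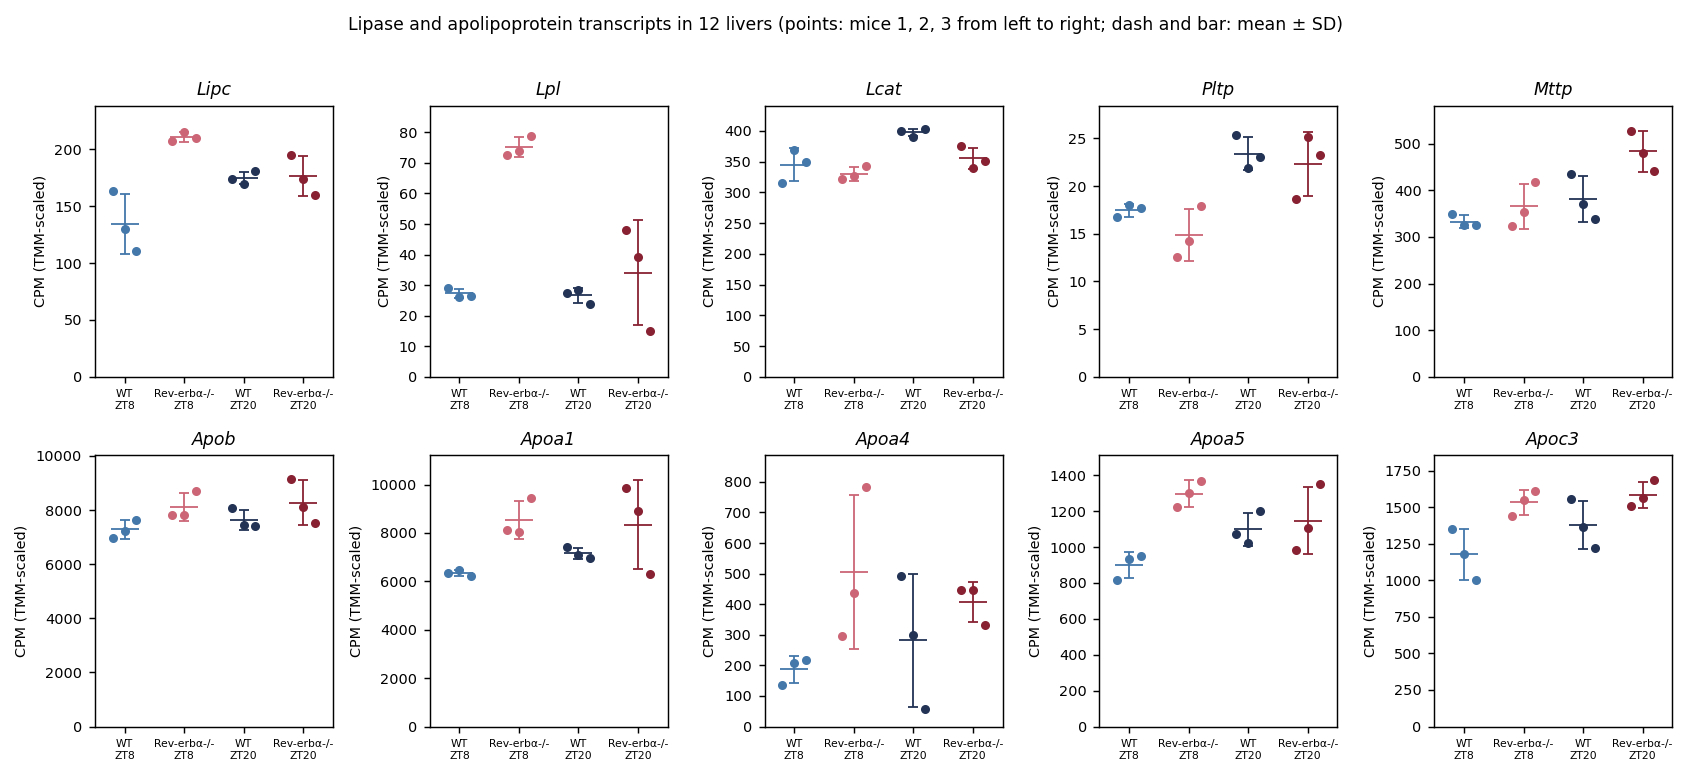
CPM (TMM-scaled, y axis from 0) of the 10 members in the 4 groups (x axis), with a point for each mouse and a dash and bar for the mean ± SD of 3 mice. For Lpl, the 3 Rev-erbα-/- livers at ZT8 lie between 72.5 and 78.9 CPM and all WT livers between 23.9 and 29.1 CPM, while mouse 3 of Rev-erbα-/- at ZT20 lies at 15.0 CPM.

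At ZT8, 3 of the 10 members passed an adjusted p of 0.05 and all 3 were higher in Rev-erbα-/- livers, whereas 8.45% of all genes tested were called in either direction and 4.40% as higher. The groups did not overlap for 7 of the 10 members, again all higher, where 25.6% of all genes did not overlap and 13.2% were higher without overlap. The median log2 fold change of the members was 0.40, against 0.0018 for all genes tested. All 10 members are reported here, so no selection by the filter enters these counts. The list itself was chosen with earlier results of these data known, so these shares describe the list and carry no test. DESeq2 called 5 members, all higher, adding Apoa1 and Apoc3. Over all genes it called 1503 of 14488, 769 of them as higher. With 3 against 3 livers an exact permutation test of a single gene cannot go below p = 0.1, so the calls rest on the fit across genes.

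Lipc had 163.2, 129.9 and 110.5 CPM in WT and 207.1, 215.3 and 209.8 CPM in Rev-erbα-/- livers at ZT8. The Rev-erbα-/- livers were close together and all above the WT livers, which spread over a wider range. The log2 fold change was 0.65 (SE 0.114, adjusted p = 0.00243). At ZT20 Lipc had 174.1, 169.7 and 180.6 CPM in WT and 194.9, 174.2 and 159.8 CPM in Rev-erbα-/- livers, which overlapped. That difference was 0.01 (95% interval -0.23 to 0.25, adjusted p = 0.983). The ZT8 difference passed in 19 of 20 alternative settings. The exception left out WT mice 2 and 3 at ZT8, the livers with high acute-phase transcripts and the lower Lipc levels, and gave 0.37 (adjusted p = 0.133) with 1 WT liver left. The part of the acute-phase difference in this result was not tested.

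Lpl had 29.1, 26.1 and 26.6 CPM in WT and 72.5, 73.9 and 78.9 CPM in Rev-erbα-/- livers at ZT8. The groups were far apart compared with the spread within each. The log2 fold change was 1.46 (SE 0.336, adjusted p = 0.0324). At ZT20 the WT livers had 27.4, 28.6 and 23.9 CPM, and the Rev-erbα-/- livers 48.1, 39.2 and 15.0 CPM. Rev-erbα-/- mice 1 and 2 were above every WT liver and mouse 3 was below every one, and the difference was 0.36 (adjusted p = 0.718). This liver widens the spread that all groups share in the fit. Without it, the log2 fold change was still 1.46 at ZT8 (adjusted p = 1.99e-07) and became 0.71 at ZT20 (adjusted p = 0.00106). The liver is singled out by its Lpl value, so p-values without it, here and below, describe the fit and are no independent support. Over 20 alternatives the ZT8 estimate stayed between 1.36 and 1.51 and passed in 8. The call was lost without any 1 of 9 of the 12 livers, namely each of the 6 livers at ZT8, WT mice 1 and 2 at ZT20 and Rev-erbα-/- mouse 2 at ZT20. The alternative without WT mice 2 and 3 at ZT8 gave 1.36 (adjusted p = 0.387). Kupffer cell and macrophage markers, whose cells can express Lpl, summed to 352 to 556 CPM in WT and 310 to 385 CPM in Rev-erbα-/- livers at ZT8, and all 8 had reads in both groups. Their part in the Lpl values was not tested, and the adipocyte markers were at or near 0 as given above.

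**Figure D2:**
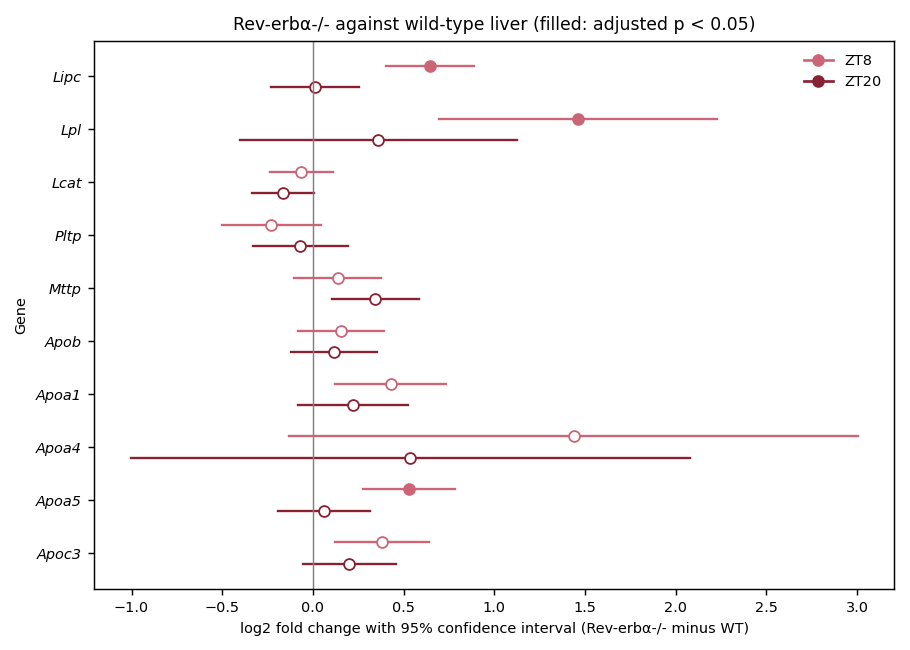
Log2 fold change of Rev-erbα-/- against WT liver (x axis) with its 95% confidence interval for each member (y axis) at ZT8 and at ZT20, with filled points for an adjusted p under 0.05. Lpl at 1.46, Lipc at 0.65 and Apoa5 at 0.53 are filled at ZT8, and no point is filled at ZT20.

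Lcat and Pltp, the enzyme and the transfer protein of HDL, were not called at either time. Lcat had 315.5, 369.0 and 349.5 CPM in WT and 321.1, 326.1 and 342.5 CPM in Rev-erbα-/- livers at ZT8, and these ranges overlapped (log2 fold change -0.06, adjusted p = 0.688). At ZT20 Lcat had 399.5, 390.7 and 402.5 CPM in WT and 374.6, 340.3 and 350.6 CPM in Rev-erbα-/- livers, without overlap, and a log2 fold change of -0.16 that missed the threshold (adjusted p = 0.372). Pltp differed by -0.23 at ZT8 (95% interval -0.50 to 0.05, adjusted p = 0.304) and by -0.07 at ZT20 (-0.33 to 0.19, adjusted p = 0.878). Its exons share 19.3% of their length with Ctsa on the other strand. The counting ignored strand and set reads on overlapping genes aside, so reads on both genes count for neither.

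Mttp and Apob, the proteins of particle assembly, were not called between genotypes either. Mttp had 348.1, 325.3 and 324.5 CPM in WT and 324.1, 353.3 and 418.6 CPM in Rev-erbα-/- livers at ZT8, with overlap (0.14, adjusted p = 0.510). At ZT20 the WT livers had 433.8, 371.4 and 337.5 CPM and the Rev-erbα-/- livers 527.4, 480.8 and 441.0 CPM. All 3 Rev-erbα-/- livers were above the WT livers, and the log2 fold change was 0.34 (SE 0.112, adjusted p = 0.130). Mttp shares 7.36% of its exon length with Trmt10a on the other strand. Apob differed by 0.15 at ZT8 (95% interval -0.08 to 0.39, adjusted p = 0.438), where the groups did not overlap, and by 0.11 at ZT20 (-0.12 to 0.35, adjusted p = 0.726).

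Apoa1, Apoc3, Apoa4 and Apoa5 lie together on mouse chromosome 9 (mm10), from 46228580, the first base of Apoa1, to 46271919, the last of Apoa5, a span of 43.34 kb. Apoc3 is on the minus strand and the other 3 are on the plus strand. Lipc is on the same chromosome at 70798128 to 70952226, outside this cluster. Only Apoa5 of the 4 passed at ZT8 in edgeR, while all 4 were higher in Rev-erbα-/- livers without overlap.

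Apoa5 had 818, 933 and 949 CPM in WT and 1221, 1304 and 1368 CPM in Rev-erbα-/- livers at ZT8. Every Rev-erbα-/- liver was above every WT liver, with a log2 fold change of 0.53 (SE 0.119, adjusted p = 0.0127). At ZT20 the values were 1073, 1021 and 1202 CPM in WT and 985, 1103 and 1352 CPM in Rev-erbα-/- livers, which overlapped (0.06, adjusted p = 0.886). The ZT8 call held in 17 of 20 alternatives, and was lost at the stricter threshold, without Rev-erbα-/- mouse 2 at ZT8 (0.53, adjusted p = 0.0522) and without WT mice 2 and 3 at ZT8 (0.66, adjusted p = 0.0583). In this last setting the Apoa5 difference was larger, where that of Lipc was smaller. An antisense gene covers 20.8% of the exon length of Apoa5.

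Apoa1 had 6342, 6471 and 6234 CPM in WT and 8129, 8056 and 9435 CPM in Rev-erbα-/- livers at ZT8. The groups were apart, with a log2 fold change of 0.43 (SE 0.143) that missed the threshold in edgeR (adjusted p = 0.0796) and passed in DESeq2 (adjusted p = 0.0170) and without Rev-erbα-/- mouse 3 at ZT20 (adjusted p = 0.0236). Without WT mice 2 and 3 at ZT8 the Apoa1 difference was also 0.43, with 1 WT liver left in that group. Rev-erbα-/- mouse 3 at ZT20 had 6290 CPM of Apoa1, against 9838 and 8891 CPM in the other 2 livers of its group. Apoc3 had 1352, 1178 and 1001 CPM in WT and 1441, 1548 and 1610 CPM in Rev-erbα-/- livers at ZT8, also apart (0.38, SE 0.121, adjusted p = 0.0642). Without WT mice 2 and 3, which had the lower Apoc3 levels, the difference was 0.18 (adjusted p = 0.680).

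Apoa4 varied widely within 3 of the 4 groups. It had 136.5, 207.3 and 216.3 CPM in WT and 295.3, 435.4 and 784.2 CPM in Rev-erbα-/- livers at ZT8, apart but with a wide standard error (log2 fold change 1.44, SE 0.683, adjusted p = 0.251). This became 1.88 (adjusted p = 0.593) without WT mice 2 and 3. In WT livers at ZT20 it ranged from 55.9 to 491.5 CPM, an 8.79-fold range among 3 mice. At ZT20 the genotype difference was 0.54 (95% interval -1.0 to 2.08, adjusted p = 0.815). Of 3 intestinal epithelium markers, Vil1 stayed under 1 CPM in every group, and their sum was 46.8 to 76.0 CPM in WT and 61.2 to 75.6 CPM in Rev-erbα-/- livers at ZT8. Their part in the Apoa4 values was not tested. Genes annotated on the other strand cover up to 34.9% of the Apoa4 exon length.

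**Figure D3:**
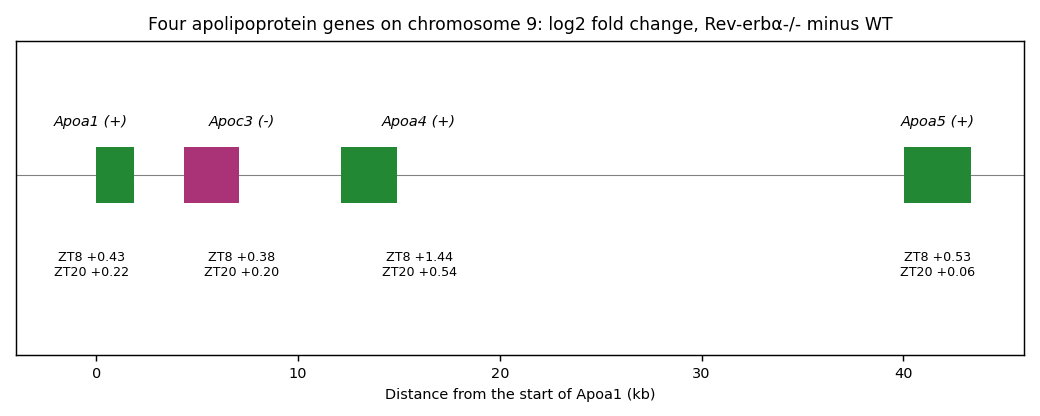
The 4 apolipoprotein genes of the chromosome 9 cluster drawn to scale (x axis, distance from the start of Apoa1 in kb; colour marks the strand), with the log2 fold change of Rev-erbα-/- against WT liver at ZT8 and ZT20 under each. The ZT8 value is above the ZT20 value for all 4 genes, and only that of Apoa5, 0.53, passed the test.

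At ZT20, 0 of the 10 members passed in edgeR, where 3.63% of all genes did. DESeq2 also called 0, against 706 of all 14488 genes. In edgeR 1 member, Mttp, had an unadjusted p under 0.05, as did 2116 of all genes. The groups did not overlap for 2 members, Mttp and Lcat, against 22.5% of all genes, and the median log2 fold change was 0.16. The difference between the genotype effects at the 2 times was tested as an interaction term, which 1 member, Lipc, passed (5.88% of all genes passed, 3.05% with a positive difference, ZT8 effect minus ZT20 effect). The Lipc effect at ZT8 exceeded that at ZT20 by 0.64 (SE 0.160, adjusted p = 0.0286), and this call held in 9 of 19 alternatives. The same difference was 1.10 for Lpl (adjusted p = 0.242), 0.47 for Apoa5 (adjusted p = 0.128) and 0.90 for Apoa4 (adjusted p = 0.670), so a difference between the times was not shown for these. Without Rev-erbα-/- mouse 3 at ZT20, Lpl gave 0.75 (adjusted p = 0.00528), Apoa5 0.60 (adjusted p = 0.0361) and Lipc 0.57 (adjusted p = 0.0652), so the call passed from Lipc to the other pair.

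**Figure D4:**
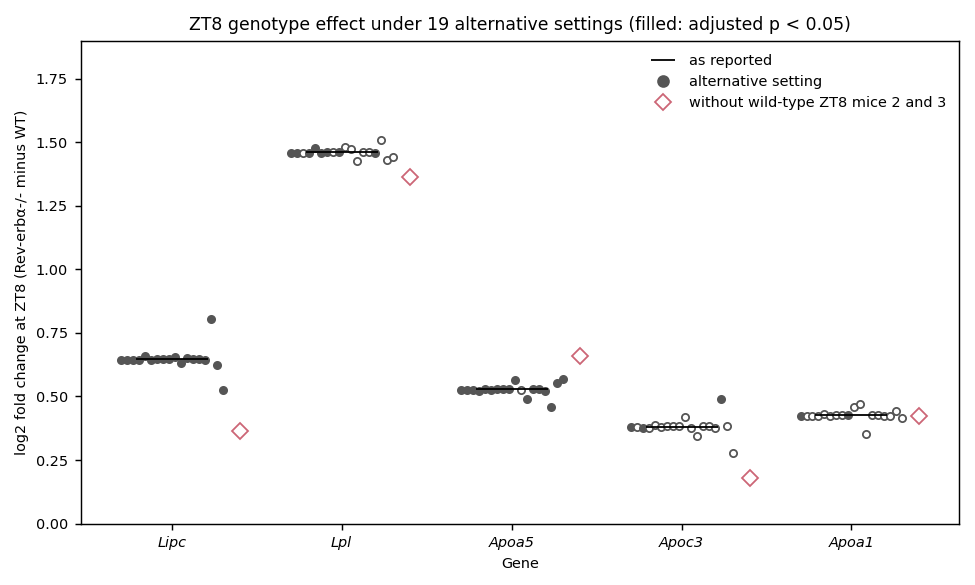
Log2 fold change at ZT8 of the 5 members with the smallest adjusted p (x axis, gene; y axis, Rev-erbα-/- minus WT) as reported (line) and under 19 alternative fits, the stricter threshold left out, with filled points for an adjusted p under 0.05. Without WT mice 2 and 3 at ZT8 (diamonds) Lipc falls to 0.37 and Apoc3 to 0.18, whereas Apoa5 lies at 0.66 and Lpl at 1.36, and no diamond is filled.

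The share of members called between ZT8 and ZT20 was near that of all genes in WT livers. In WT livers 2 of 10 passed, both higher at ZT20, where 27.7% of all genes were called and 13.8% as higher. The groups were apart for 5 members, all higher at ZT20, where 42.3% of all genes were apart and 21.5% as higher. Lipc rose by 0.38 on the log2 scale (SE 0.113, adjusted p = 0.0218), and it lost the call without WT mice 2 and 3 at ZT8 (0.094, adjusted p = 0.676), as without WT mouse 2 or 3 at ZT8 or WT mouse 1 or 3 at ZT20 alone. Pltp rose from 16.7, 18.0 and 17.7 CPM at ZT8 to 25.3, 21.9 and 23.0 CPM at ZT20, without overlap (0.42, SE 0.126, adjusted p = 0.0211). This call passed in 13 of 20 alternatives, and was lost without any 1 of the 3 WT livers at ZT8 or of WT mice 1 and 3 at ZT20, and without WT mice 2 and 3 at ZT8 (0.48, adjusted p = 0.142). Lcat differed by 0.21 (adjusted p = 0.0691) and Apoa5 by 0.29 (adjusted p = 0.0862), both without overlap, and DESeq2 also called Lcat. The WT values of Lpl differed by -0.04 (95% interval -0.81 to 0.73, adjusted p = 0.954).

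In Rev-erbα-/- livers 2 members were higher and 1 was lower at ZT20, where 17.5% of all genes were called, 8.79% as higher and 8.67% as lower. The groups were apart for 4 members, against 35.0% of all genes. Pltp rose from 12.6, 14.2 and 17.9 CPM to 18.6, 25.1 and 23.2 CPM (0.58, SE 0.127, adjusted p = 0.00573), a call that held in all 20 alternatives. Mttp rose by 0.40 (SE 0.113, adjusted p = 0.0223), against 0.20 in WT (adjusted p = 0.220), and the interaction did not separate these (adjusted p = 0.518). The Mttp call passed in 15 of 20 alternatives, and was lost without mouse 1 or 2 at ZT8 or mouse 1 or 2 at ZT20. Lpl fell by 1.14 on the log2 scale (SE 0.331, adjusted p = 0.0466), and by 0.78 without mouse 3 at ZT20 (adjusted p = 0.000160). Lpl passed in 5 of 20 alternatives here, and in 2 of the 12 that left out a single liver. Lipc was lower at ZT20 without overlap (-0.26, adjusted p = 0.135), while in WT it was higher, and the interaction given above is the test of this difference. The median change of the members was 0.22 in WT and -0.0028 in Rev-erbα-/- livers, against -0.00021 and 0.0063 for all genes tested. A difference between the member medians was not tested. The time comparisons share libraries with the genotype comparisons and are not independent of them.

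**Figure D5:**
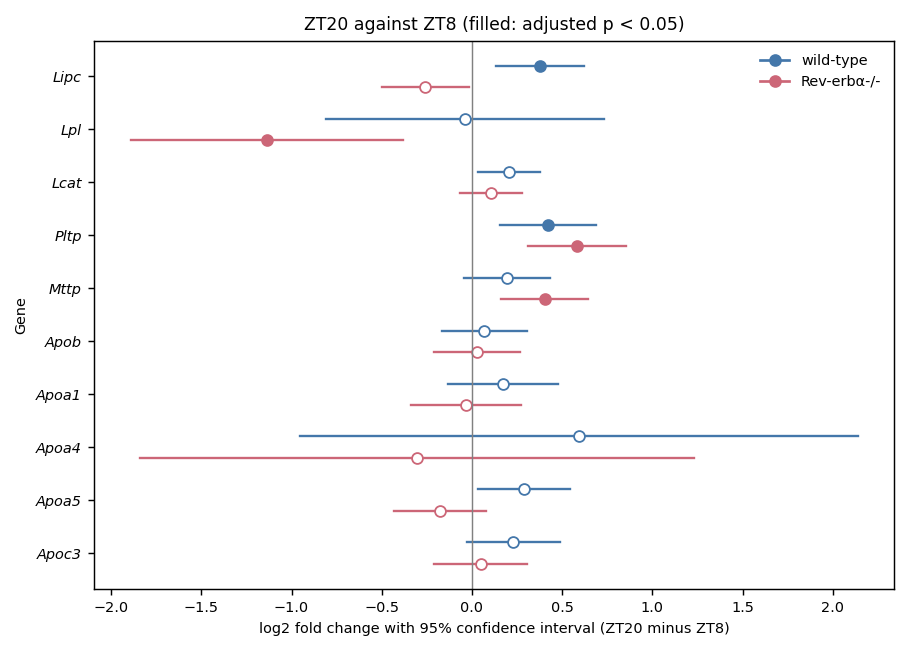
Log2 fold change of ZT20 against ZT8 (x axis) with its 95% confidence interval for each member (y axis) in WT and Rev-erbα-/- livers, with filled points for an adjusted p under 0.05. Pltp is filled in both genotypes (0.42 and 0.58), Lipc in WT only (0.38), and Mttp (0.40) and Lpl (-1.14) in Rev-erbα-/- only.

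A list of 38 further genes of lipoprotein metabolism was examined, with 37 tested and Apod without reads in any library. At ZT8, 1 of the 37 was higher and 2 were lower in Rev-erbα-/- livers, where 8.45% of all genes were called, and the median log2 fold change was -0.0011. Lipa, the lysosomal acid lipase, rose from 178 ± 15.2 to 234 ± 5.07 CPM (SD, n = 3; 0.39, adjusted p = 0.00588). Lsr, a receptor for triglyceride-rich particles, fell from 57.7 ± 2.78 to 43.4 ± 7.24 CPM (-0.41, adjusted p = 0.0156). Abcg1, a cholesterol exporter, fell from 8.64 ± 0.635 to 6.01 ± 0.888 CPM (-0.52, adjusted p = 0.0432). Without WT mice 2 and 3 at ZT8 none of the 37 passed, with 0.25 for Lipa (adjusted p = 0.272), -0.35 for Lsr (adjusted p = 0.277) and -0.42 for Abcg1 (adjusted p = 0.428).

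Among the direct partners of LPL, Angptl4, an inhibitor, differed by -0.38 at ZT8 (adjusted p = 0.431) and by -0.82 at ZT20 (adjusted p = 0.170). Gpihbp1, which carries LPL across endothelium, differed by -0.13 at ZT8 (adjusted p = 0.570) and by -0.24 at ZT20 (adjusted p = 0.391).

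Apoc2, the activator of LPL, changed at ZT20. It had 263.9, 229.9 and 211.7 CPM in WT and 151.6, 144.1 and 129.9 CPM in Rev-erbα-/- livers, with no overlap and a log2 fold change of -0.73 (adjusted p = 0.000332). At ZT8 it had 141.3, 145.7 and 129.5 CPM in WT and 145.2, 164.4 and 168.3 CPM in Rev-erbα-/- livers (0.20, adjusted p = 0.218). The interaction passed (0.93, adjusted p = 0.000636), as did that of Lipa (0.55, adjusted p = 0.00703). Without WT mice 2 and 3 at ZT8 the Apoc2 interaction was 0.89 (adjusted p = 0.00865) and that of Lipa 0.41 (adjusted p = 0.0954). Lsr was the other listed gene lower at ZT20, falling from 82.0 ± 5.28 to 55.2 ± 1.46 CPM (-0.57, adjusted p = 0.00250), and no listed gene was higher. Thus 2 of the 37 listed genes tested were called at ZT20, where 3.63% of all genes were. For the interaction it was also 2 of the 37, where 5.88% of all genes passed. Apoa2, the second HDL protein, had 3827, 2789 and 1948 CPM in WT mice 1, 2 and 3 at ZT8 and 3584, 3747 and 3299 CPM in Rev-erbα-/- livers (0.31, adjusted p = 0.323). Apoe differed by 0.10 at ZT8 (adjusted p = 0.690) and by -0.20 at ZT20 (adjusted p = 0.527).

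Between the times, 10 of the 37 listed genes were higher and 4 lower at ZT20 in WT livers, and 8 were higher and 2 lower in Rev-erbα-/- livers, where 27.7% and 17.5% of all genes were called. In WT those with small p-values included Lipa (1.07), the heparan sulphate proteoglycan Sdc1 (0.91), Apoc2 (0.76), the secretory pathway gene Sar1b (0.70), Sel1l (0.76) and Lsr (0.51), all as log2 changes with adjusted p between 1.53e-07 and 0.00103. These 6 also passed without WT mice 2 and 3 at ZT8. Among the 4 that were lower, the endothelial lipase gene Lipg, named after its values were seen, fell from 23.8 ± 1.97 to 8.47 ± 1.93 CPM (-1.49, adjusted p = 0.00273, and 0.0632 without WT mice 2 and 3 at ZT8). In Rev-erbα-/- livers the smallest p-values belonged to Sdc1 (0.86), Lipa (0.52), Tm6sf2 (0.71), P4hb (0.43), Surf4 (0.31), Sar1b (0.36), Lipg (-1.17) and Lsr (0.35). Apoc2 differed there by -0.17 (adjusted p = 0.249).

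The genes whose log2 CPM followed the members most closely over the 12 livers were sought among 8054 genes with a mean of at least 10 CPM, for the 4 members with the smallest adjusted p. They were Zfp141, Cyp2c67 and Gm4952 for Lipc (Pearson r 0.949, 0.948 and 0.937), and Anxa6, Dennd4a and Frmd4b for Pltp (0.967, 0.944 and 0.942). For Apoa5 they were Phc2, Ablim3 and Wdr91 (0.879, 0.868 and 0.861), and for Mttp Copa, Eefsec and Cltc (0.953, 0.952 and 0.951). The livers share their group means, so these coefficients describe the 12 libraries and carry no test. No other member was among the 3 closest genes of these 4.

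Regulators of the members differed between the genotypes as well. Hnf4a, a hepatocyte nuclear receptor known to activate apolipoprotein genes, had 763, 809 and 811 CPM in WT and 904, 994 and 1138 CPM in Rev-erbα-/- livers at ZT8 (0.35, adjusted p = 0.0366, and 0.182 without WT mice 2 and 3). Nr1d2, which encodes the related receptor REV-ERBβ, was higher at ZT20 in Rev-erbα-/- livers (1.00, adjusted p = 0.0452, and 0.0941 without WT mice 2 and 3 at ZT8). The part of these in the values of the members was not tested.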

How the data were processed

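RNA-seq libraries of 12 mouse livers were analysed, with genotype, time point and replicate number taken from the sample labels. The authors mapped reads to mm10 with TopHat and assigned uniquely mapped reads to gene symbols with HTSeq (union mode, minimum alignment quality 10, strand ignored). The deposited values are raw counts, 1 whole number per symbol and library, with 5 summary lines that were left out of library sizes. Reads outside any gene were 8.50% to 9.95%, and reads on overlapping genes 3.08% to 3.62%, of the sum of these and the counted reads. The submitters' processing notes name DESeq2 1.6.3 for their own test.

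From the counts, filterByExpr kept 14488 genes. TMM scaling and a robust quasi-likelihood fit in edgeR 4.0.16 (R 4.3.3) used 4 group means over 12 samples, and p-values were adjusted by Benjamini-Hochberg over all genes tested, within each contrast, at 0.05. Contrasts were genotype at each time, the difference of these, and time within each genotype. Intervals are 95% intervals of the fit. No 2 replicates agreed within sampling noise. In data simulated for the ZT8 genotype comparison over 14488 genes, 180 of 200 genes changed 3-fold were recovered, with 8 false calls. Every member change in the reported fit was smaller than 3-fold, and recovery at such sizes was not simulated. Alternatives were DESeq2 1.42.0, its size factors, other filters, the compared samples alone, a replicate block, an adjusted p of 0.01, leaving out each library and leaving out WT mice 2 and 3 at ZT8. Positions are from GENCODE vM21 (mm10). The members and lists were chosen with earlier results of these data known. All members were named in each contrast, with at most 8 listed partner genes called per contrast by p-value, some partners always named, and regulators as context. Some genes that this rule names are not reported here. Arntl was added outside that rule.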

Additional observations from a re-analysis of the deposited data

Results flagged for a closer look

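The genotype effect on Lipc at ZT8 exceeded that at ZT20 by 0.64 on the log2 scale, and the interaction term passed its test (SE 0.160, adjusted p = 0.0286, edgeR). All 3 Rev-erbα-/- livers were above all 3 WT livers at ZT8, and the groups overlapped at ZT20. The call was lost in 10 of 19 alternatives, among them without WT mice 2 and 3 at ZT8 (0.35, adjusted p = 0.238). It was also lost without any 1 of WT mouse 2 at ZT8, Rev-erbα-/- mouse 1 or 2 at ZT8, WT mouse 1, 2 or 3 at ZT20, or Rev-erbα-/- mouse 2 or 3 at ZT20, with values of 0.57 to 0.66.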

How the results depend on the processing

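Of the member results, 901 kept direction and side of the threshold, 60 no longer passed, 14 newly passed and 15 changed sign. The 3 members called at ZT8 became 5 in DESeq2, 1 at an adjusted p of 0.01, 0 without WT mice 2 and 3 at ZT8, and 1 to 4 without single livers (1 without Rev-erbα-/- mouse 2 at ZT8). The 0 called at ZT20 became 1, Lpl, without Rev-erbα-/- mouse 3 at ZT20 (range 0 to 1). The single interaction call became 0 at 0.01 and without WT mice 2 and 3 at ZT8, and 0 to 2 without single livers. The 2 calls over time in WT became 0 at 0.01, 1 with only the 6 samples compared, 0 without WT mice 2 and 3 at ZT8, and 0 to 3 without single livers (0 without WT mouse 2 or 3 at ZT8 or WT mouse 1 or 3 at ZT20). The 3 in Rev-erbα-/- became 1 at 0.01 and 1 to 3 without single livers (1 without Rev-erbα-/- mouse 1 or 2 at ZT8 or mouse 2 at ZT20).

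Partner genes called at ZT8 went from 3 to 5 in DESeq2, 1 at 0.01, 1 with 6 samples and 1 to 8 without single livers (8 without WT mouse 1, 7 without Rev-erbα-/- mouse 3). Their ZT20 count of 2 became 2 to 3 without single livers, the interaction count of 2 became 2 to 4 (4 without WT mouse 1 at ZT8), the WT time count of 14 became 10 to 19, and the Rev-erbα-/- time count of 10 became 3 at 0.01 and 4 to 11 without single livers. Leaving out WT mice 2 and 3 at ZT8, an alternative added for these genes after seeing the data, gave 0 at ZT8, 1 for the interaction and 8 over time in WT.

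Signs changed without single livers for the ZT20 genotype effect of Lipc (-0.066 to 0.078), Pltp (-0.16 to 0.046) and Apoa5 (-0.073 to 0.16), for the interaction of Apob (-0.022 to 0.12), for the WT time effect of Lpl (-0.089 to 0.022) and Apoa4 (-0.075 to 1.07), and for the Rev-erbα-/- time effect of Apob (-0.052 to 0.092), Apoa1 (-0.17 to 0.13) and Apoa4 (-0.58 to 0.16). Without WT mice 2 and 3 at ZT8, Lcat at ZT8 was 0.060 and the Apoc3 interaction -0.027. None of these passed the test, and the cause of each change was not tested.

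Calls over all genes ranged, over the alternatives, from 346 to 1811 at ZT8 (1224 reported), 223 to 706 at ZT20 (526), 357 to 1260 for the interaction (852), 1795 to 4195 over time in WT (4018) and 1231 to 2847 in Rev-erbα-/- (2530).

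The replicate numbers did not pair the samples: deviations from the group means correlated at -0.0183 for equal numbers and 0.0089 for others, 1 of 18 pairs exceeded 0.1, and 3 of 12 samples correlated best with their own number. With the number as a replicate block, members called were 3 at ZT8, 0 at ZT20, 1 for the interaction, 3 in WT and 2 in Rev-erbα-/- over time, and partner genes at ZT20 went from 2 to 4.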

Other observations

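Single livers stood at opposite ends for different members. In Rev-erbα-/- livers at ZT20, mouse 3 had the lowest Lpl (15.0 CPM), Apoa1 (6290 CPM) and Apob (7523 CPM) of its group and the highest Apoa5 (1352 CPM) and Apoc3 (1682 CPM). In WT livers at ZT20, mouse 3 had 55.9 CPM of Apoa4 and the highest Apoa5 (1202 CPM). Groups of 3 were not tested for outliers.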
